A study of Mus musculus with 8 samples.

Results

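The 8 genes described here, Sncg, Nefl, Nefm, Gap43, Thy1, Stmn2, Rbpms and Elavl4, are genes of the axon, cell surface and RNA-binding machinery that are used as markers of retinal ganglion cells. They were taken by symbol from a table of 16096 genes, and all 8 were found and passed the filter on low counts. RNA came from the peripheral retina of mouse embryos (C57BL/6) taken on embryonic day 16.5. One group of 4 libraries carried Pax6alpha-Cre, a floxed Ezh2 allele and an Ezh2 null allele (Ezh2fl/null), and the other group of 4 carried Pax6alpha-Cre, the floxed allele and a wild-type allele (Ezh2fl/+, the controls). Ezh2 encodes the histone methyltransferase of Polycomb repressive complex 2 (PRC2). Cre was thus present in both groups, and the null allele was in every cell of the Ezh2fl/null embryos, whereas the floxed allele was open to recombination only where the driver is active, mainly in the peripheral retina.

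Ganglion cells are the output neurons of the retina and the first neurons it makes. Their axons leave through the optic nerve, and at this stage they are still growing towards the brain. Neurofilament subunits and stathmins build and remodel the axonal cytoskeleton, Gap43 marks growing axon tips, and most of these genes are also expressed by other neurons, among them horizontal and amacrine cells. In whole tissue, fewer ganglion cells and less RNA per ganglion cell cannot be told apart.

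Total counts ran from 13994825 to 18391647 per library. The whole-gene Ezh2 count was not lower in the libraries labelled Ezh2fl/null (251 ± 23.1 CPM, counts per 1000000 counts of normalized library size, against 217 ± 18.1; SD, n = 4 each), so these are called null-labelled libraries below. A whole-gene count does not check the loss of single exons. Of the null-labelled libraries, replicates 2 and 3 came from female embryos by their Xist counts, and the other 6 libraries were male. Null-labelled replicate 2 and control replicate 1 held the most lens marker RNA (11.9 and 16.6 CPM, against 2.67 to 3.76 CPM in the others). Mitochondrial genes took 14.0% and 13.8% of counts in control replicates 1 and 3, against 8.91% and 8.41% in control replicates 2 and 4, and 10.1% to 14.3% in the null-labelled libraries. The labels name no batch, embryo or litter, and the p-values therefore cover only the spread among these libraries, which may be technical. Control replicate 1 was the highest of the 4 controls for 8 of the 8 genes in CPM and for 4 of the 8 in FPKM (the deposited values, scaled by gene length and depth). Over all genes tested, that library was the highest control in 26.5% in CPM and in 12.8% in FPKM.

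Among the 8 genes, Thy1 rose 2.74-fold in the null-labelled libraries, Nefm fell by 0.30 on the log2 scale, and the other 6 were not called at an adjusted p under 0.05. Across the 15014 genes tested with the edgeR quasi-likelihood test, 8.35% were called higher and 3.46% lower. With library size alone as the scale, the share of higher calls among all calls was 82.5%, against 70.7% as reported. Counts of 1 in 8 in each direction are near that background and are no result about the set. The groups did not overlap for 1 gene in the higher direction (10.1% of all genes tested) and for 3 in the lower direction (6.21% of all genes). The median log2 fold change was -0.07 over the 8 genes and -0.01 over all genes tested.

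**Figure D1:**
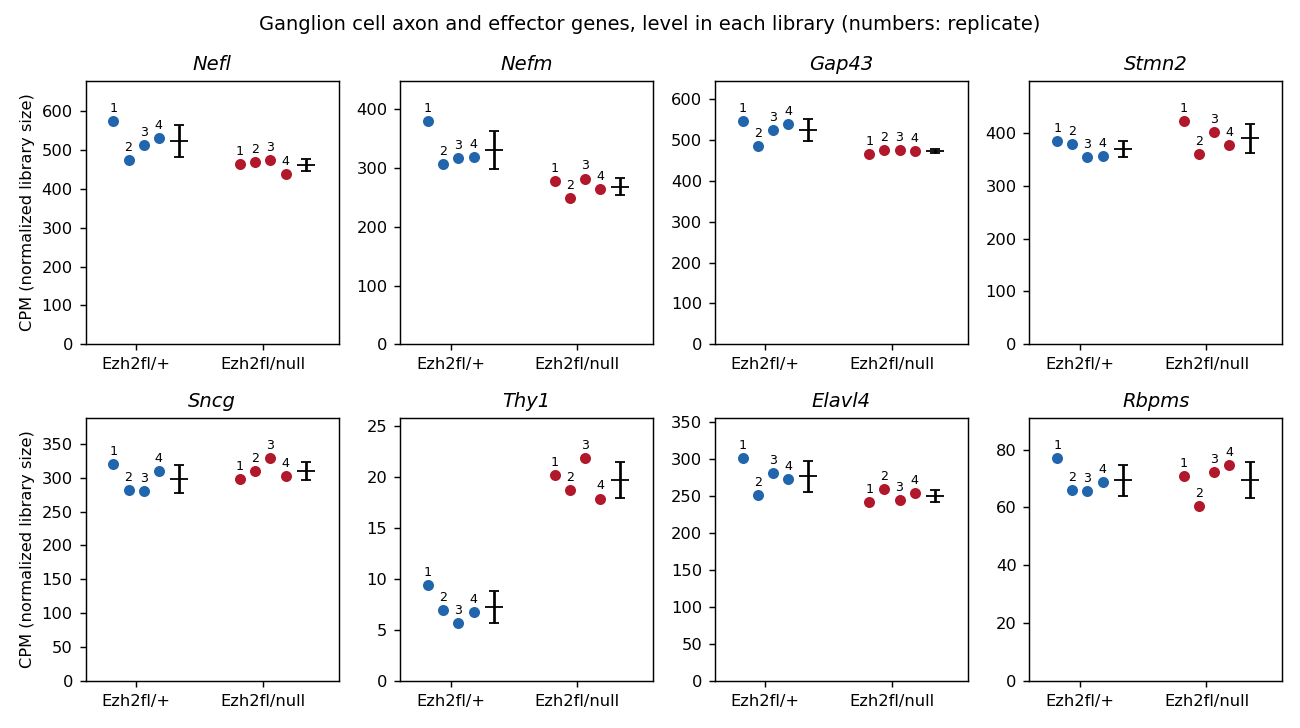
Level of each of the 8 genes in each library in CPM (vertical axes start at 0), with controls in blue, null-labelled libraries in red, the replicate number over each point and the mean ± SD at the right of each group. The groups lie apart for Thy1 (17.9 to 21.9 against 5.68 to 9.435 CPM), and by less for Nefm, Nefl and Gap43.

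Per unit of gene length, the order of the levels in control retina ran from Sncg to Thy1. Mean deposited FPKM in the controls was 347 ± 27.0 for Sncg, 341 ± 18.2 for Gap43, 192 ± 10.8 for Stmn2, 153 ± 10.4 for Nefl, 56.6 ± 4.47 for Nefm, 50.8 ± 2.59 for Elavl4, 17.1 ± 1.19 for Rbpms and 4.12 ± 0.844 for Thy1 (SD, n = 4). Sncg and Gap43 overlapped in range, as did Nefm and Elavl4, and the other neighbours in this order did not. In the null-labelled libraries the order was the same except that Nefm and Elavl4 stood at the same mean (46.8 ± 3.40 and 46.8 ± 1.36 FPKM). The control mean of Sncg lay above 99.6% of all genes tested and that of Thy1 above 37.6%. The gene lengths implied by the FPKM values were 1736 bases for Thy1, 1905 for Stmn2 and 4025 for Rbpms, shorter than the 2995, 5602 and 6556 exon bases of GENCODE M21, so these 3 levels depend on the gene model. For the other 5 genes the 2 lengths differed by at most 4 bases.

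The neurofilament genes came first in the axonal cytoskeleton. Nefl and Nefm encode the light and medium subunits that, with the heavy subunit and alpha-internexin, fill large axons and set their calibre. On mm10 chromosome 14, Nefl lies within the annotated span of Nefm. Nefl is at 68083863 to 68089095 on the plus strand (ENSMUSG00000022055) and Nefm at 68082590 to 68124846 on the minus strand (ENSMUSG00000022054). In GENCODE M21 their annotated exons share 1108 bases on opposite strands. No source used here says whether strand was used in counting, and reads from that stretch cannot be assigned to one of them.

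In null-labelled replicates 1 to 4, Nefm stood at 277.5, 249, 282 and 264 CPM. Control replicates 1 to 4 gave 379.9, 307, 318 and 319 CPM. Every null-labelled library was below every control, and control replicate 1 stood above the other 3 controls. Nefm averaged 268 ± 14.8 CPM in null-labelled libraries and 331 ± 33.2 CPM in controls (SD, n = 4), a log2 fold change of -0.30 (SE 0.07, 95% limits -0.44 to -0.16; edgeR adjusted p = 0.00659). Without control replicate 1 the log2 value was -0.23 (edgeR adjusted p = 0.0142). Without that library and null-labelled replicate 2, the pair with the most lens RNA, it was -0.195 (edgeR adjusted p = 0.0287). The call ended with sex as a covariate (log2 -0.29, edgeR adjusted p = 0.0536) and against control replicates 2 and 4 only (log2 -0.22, edgeR adjusted p = 0.0514). Over 22 alternatives the adjusted p ran from 9.83e-05 to 0.0536.

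Nefl, at 463, 469, 474 and 439 CPM against 575, 476, 513 and 531 CPM, also had every null-labelled library below every control, but the gap between the nearest libraries was 474 to 476 CPM. Nefl was at log2 -0.18 (95% limits -0.31 to -0.05, SE 0.06) and was not called (edgeR adjusted p = 0.0628). It was called with DESeq2 (adjusted p = 0.0124) and without control replicate 2, the lowest control (edgeR adjusted p = 0.0292). For Nefl, the authors' deposited table has a log2 ratio of -0.18 and a score that, taken as -10 times log10 of a p, equals an adjusted p of 0.0124. The ratio of Nefm to Nefl in FPKM was 0.340 ± 0.0196 in the null-labelled libraries and 0.369 ± 0.0158 in the controls (SD, n = 4). The groups were not apart, with 0.351 in null-labelled replicate 4 and in control replicate 4.

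Growth cone genes differed little. Gap43, which encodes a membrane-bound phosphoprotein of growing axon tips, lies on mm10 chromosome 16 at 42248442 to 42340651 (ENSMUSG00000047261). Its level was 467, 476, 476 and 473 CPM in the null-labelled libraries and 546, 487, 525 and 539.6 CPM in the controls. The null-labelled libraries were all lower and spread by only 0.905% (coefficient of variation), against 5.11% in the controls. Gap43 was not called, at log2 -0.15 (95% limits -0.26 to -0.04, SE 0.05; edgeR adjusted p = 0.0737). Like Nefl, it was called with DESeq2 (adjusted p = 0.0107) and without control replicate 2 (edgeR adjusted p = 0.0426). The Gap43 score in the authors' deposited table, taken the same way, equals an adjusted p of 0.0103.

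Stmn2 encodes stathmin 2 (SCG10), which binds tubulin and regulates microtubule turnover in growth cones (chromosome 3, 8509360 to 8561606, ENSMUSG00000027500). It stood at 422, 359.8, 401 and 377 CPM in the null-labelled libraries and at 385, 379, 355 and 357 CPM in the controls, and the groups overlapped. Stmn2 was at log2 0.08 (95% limits -0.04 to 0.20, SE 0.06; edgeR adjusted p = 0.441), which allows a difference of 0.972- to 1.15-fold. Within each library, Gap43 relative to Stmn2 in FPKM was 1.52 ± 0.117 in the null-labelled group and 1.78 ± 0.127 in the controls (SD, n = 4). These ratios overlapped between the groups, with 1.66 in null-labelled replicate 2 and 1.6 in control replicate 2.

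Thy1 was the member that rose, and it was also the least abundant of the 8. It encodes a small surface glycoprotein of the immunoglobulin superfamily, anchored to the membrane by lipid, that is widely used to mark mature ganglion cells and is also made by T cells, fibroblasts and other neurons. The gene lies on chromosome 9 at 44043384 to 44048579 (ENSMUSG00000032011), and no annotated gene overlaps it. Its raw counts were 377, 269, 334 and 290 in null-labelled replicates 1 to 4 and 126, 107, 81 and 122 in control replicates 1 to 4. In CPM these were 20.3, 18.7, 21.9 and 17.9 against 9.435, 7.01, 5.68 and 6.79. The lowest null-labelled library was thus well above the highest control, again replicate 1. Thy1 averaged 19.7 ± 1.76 CPM in null-labelled libraries and 7.23 ± 1.58 CPM in controls (SD, n = 4), a log2 fold change of 1.45 (SE 0.12, 95% limits 1.19 to 1.71; edgeR adjusted p = 1.7e-06). The fold change was larger than that of 99.0% of all genes tested. It was called in 22 of 22 alternatives, with log2 values of 1.29 to 1.62. For Thy1, all 70 assignments of the libraries gave p = 0.0286 in a two-sided exact permutation test, the smallest possible. Nefm, Nefl and Gap43, whose groups did not overlap either, had the same value. The test thus adds nothing to the lack of overlap and does not set Thy1 apart. In male libraries alone the log2 value was 1.41.

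Markers of other cell types that make Thy1 gave mixed values: 0 T cell markers and 2 fibroblast markers were called. Of 8 T cell markers, 3 were tested (Lck, Ptprc and Cd4), the other 5 are not analysed here, and 0 were called with edgeR (0 at an unadjusted p under 0.05, and 0 with DESeq2). Their summed level was 6.13 to 6.98 CPM in the null-labelled libraries and 4.85 to 6.52 CPM in the controls, most of it Lck, at 4.12 ± 0.109 and 3.91 ± 0.684 CPM (SD, n = 4). Of 9 mesenchyme and fibroblast markers, 8 were tested and 2 rose, beside 8.35% of all genes tested. The 2 were Pdgfra (log2 1.01) and Twist1 (log2 3.83). The fibroblast list summed to 38.0 to 90.6 CPM against 41.4 to 68.3 CPM, and the groups overlapped. Pdgfra, also a marker of optic nerve astrocytes, rose from 6.99 ± 0.918 to 14.0 ± 1.35 CPM (SD, n = 4). Of 6 optic nerve astrocyte markers, 3 were tested and 2 rose, beside the same 8.35% of all genes tested. The 2 were Pdgfra and the glutamate transporter gene Slc1a2 (log2 0.49, edgeR adjusted p = 4.26e-05, called in 22 of 22 alternatives). The astrocyte list summed to 172 to 208 CPM in the null-labelled libraries and 125 to 133 CPM in the controls, with no overlap. Most of that sum was Slc1a2, at 168 ± 15.7 and 120 ± 2.55 CPM (SD, n = 4). The other tested marker, Aldh1l1, was not called (log2 0.44, edgeR adjusted p = 0.116). The part of these cells in the Thy1 result was not tested.

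One gene close to Thy1 was also called. Of 17 other genes annotated within 100 kb, 6 were tested, 1 was called higher and 0 lower with edgeR. The higher gene was Mcam, which encodes another surface protein of the immunoglobulin superfamily and lies 85890 bases away. Mcam stood at 41.9, 41.1, 44.4 and 38.2 CPM in the null-labelled libraries and at 23.8, 20.2, 26.7 and 20.7 CPM in the controls, with no overlap (log2 0.86, SE 0.08, edgeR adjusted p = 5.91e-06). The nearest tested neighbour, Usp2, was at log2 0.17 (SE 0.13, edgeR adjusted p = 0.466). Over all 8 loci, 17 neighbours were tested, and the only other one called was Nefm, the neighbour of Nefl. Of all genes tested, 11.8% were called in either direction with edgeR. The counts of called neighbours are near that background and are no result about the loci.

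Among 14290 genes outside the set with at least 1 CPM, the pattern most like that of Thy1 over the 8 libraries was that of Nefh, the heavy neurofilament subunit, which is the last of the 3 to appear as axons mature. The Pearson r of log2 CPM was 0.9955 over 8 libraries, and 0.953 after each group mean was subtracted. The next most alike were Rbms1, an RNA-binding protein gene (r = 0.9954), and the integrin gene Itga8 (r = 0.9942). After group means were subtracted, the genes most like Thy1 were others, A730020E08Rik (r = 0.9948), Ptpla (r = 0.9834) and 5031425E22Rik (r = 0.9751), none of which was called between the groups. Nefh, Rbms1 and Itga8 all differed between the groups, so the r over 8 libraries holds the group difference, and libraries share their depth and scaling.

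**Figure D2:**
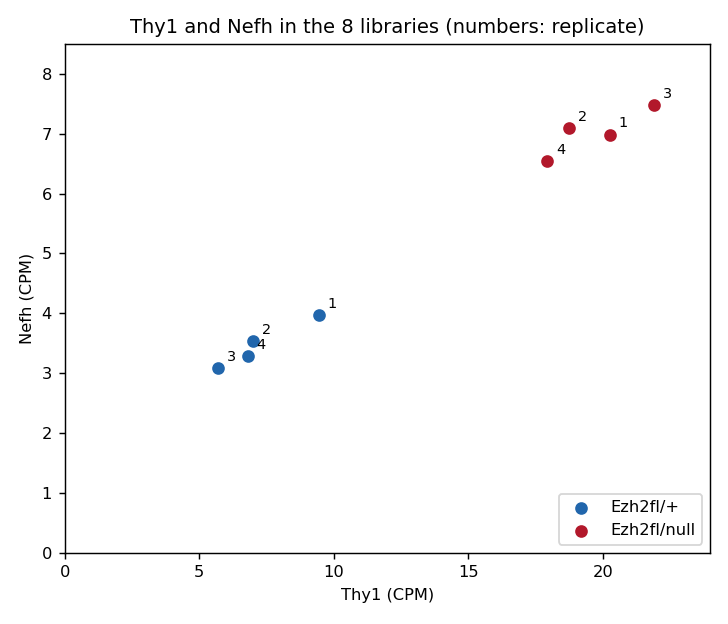
Thy1 (horizontal axis) and Nefh (vertical axis) in CPM in each library, with controls in blue, null-labelled libraries in red and the replicate number beside each point. The groups form separate clusters, and control replicate 1 is the highest control for both genes (9.435 CPM of Thy1 and 3.97 CPM of Nefh).

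Sncg encodes gamma-synuclein, a small protein abundant in ganglion cell bodies and axons (chromosome 14, 34370274 to 34374789, ENSMUSG00000023064). It stood at 298, 310.5, 329 and 302 CPM in the null-labelled libraries and at 319.9, 282, 280.2 and 310.3 CPM in the controls. The ranges overlapped. The log2 fold change was 0.06 (SE 0.05, edgeR adjusted p = 0.603), with 95% limits of 0.959- to 1.13-fold.

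The RNA-binding genes did not pass the test. Elavl4 encodes HuD, a neuronal protein that stabilizes messenger RNAs, Gap43 mRNA among its known targets (chromosome 4, 110203722 to 110351909, ENSMUSG00000028546). It stood at 242, 259, 245 and 254 CPM against 301, 251, 280.55 and 273 CPM. Control replicate 2 lay inside the null-labelled range and the other 3 controls lay above it. Elavl4 was at log2 -0.14 (95% limits -0.26 to -0.03, SE 0.05; edgeR adjusted p = 0.110), and without control replicate 2 the gene was called (log2 -0.19, edgeR adjusted p = 0.0379). Rbpms, whose protein binds RNA and marks nearly all ganglion cells of the mature retina, lies on chromosome 8 at 33782643 to 33929863 (ENSMUSG00000031586). It stood at 70.8, 60.4, 72.2 and 74.6 CPM in the null-labelled libraries and at 77.1, 65.9, 65.6 and 68.9 CPM in the controls. The ranges overlapped and the log2 fold change was 0.00 (SE 0.07, edgeR adjusted p = 0.985), with 95% limits of 0.901- to 1.11-fold. Of the smooth muscle and pericyte markers, other cells that make Rbpms, 5 of 7 were tested. Of these 1, Cspg4, was called higher with edgeR (0 with DESeq2), beside 8.35% of all genes tested. The Cspg4 call ended in 6 of 20 alternatives, among them the male libraries alone. That list summed to 5.21 to 9.21 CPM against 3.44 to 5.89 CPM.

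PRC2 is known to act at promoters rich in CG dinucleotides, so the promoters of the 2 members found in the RefSeq promoter table (GRCm38.p6) are shown, as the 250 bases before the start, with each CG in capitals. The RefSeq start of Sncg lies inside the gene as GENCODE M21 annotates it, so part of that stretch is within the annotated gene. The other 6 members have no entry there. Elavl4 has 4 starts in the table, and the most upstream is given.
Sncg, chr14:34374670-34374919, minus strand: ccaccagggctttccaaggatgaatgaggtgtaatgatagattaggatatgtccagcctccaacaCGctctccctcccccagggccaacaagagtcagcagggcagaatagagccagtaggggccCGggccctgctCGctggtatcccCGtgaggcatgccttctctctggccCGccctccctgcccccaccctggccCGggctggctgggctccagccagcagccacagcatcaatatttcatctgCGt
Elavl4, chr4:110351912-110352161, minus strand: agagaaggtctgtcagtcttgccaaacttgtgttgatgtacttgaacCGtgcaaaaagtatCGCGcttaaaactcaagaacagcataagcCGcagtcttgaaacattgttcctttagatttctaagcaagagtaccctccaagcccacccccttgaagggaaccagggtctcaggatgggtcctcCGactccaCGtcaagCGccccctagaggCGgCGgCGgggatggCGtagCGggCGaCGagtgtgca
The Sncg stretch holds 7 CG dinucleotides and the Elavl4 stretch 14. The median over the 32851 promoters of the table is 6, and 53.7% of them hold fewer than Sncg and 70.6% fewer than this Elavl4 start. Neither stretch holds TATAAA (12.4% of all promoters do), CCAAT (33.8%), TAATTA (4.84%), CAGCTG (13.0%) or CACGTG (6.02%) on either strand. The other 3 Elavl4 starts have 3 to 5 CG dinucleotides. Counts per gene do not separate these starts.

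**Figure D3:**
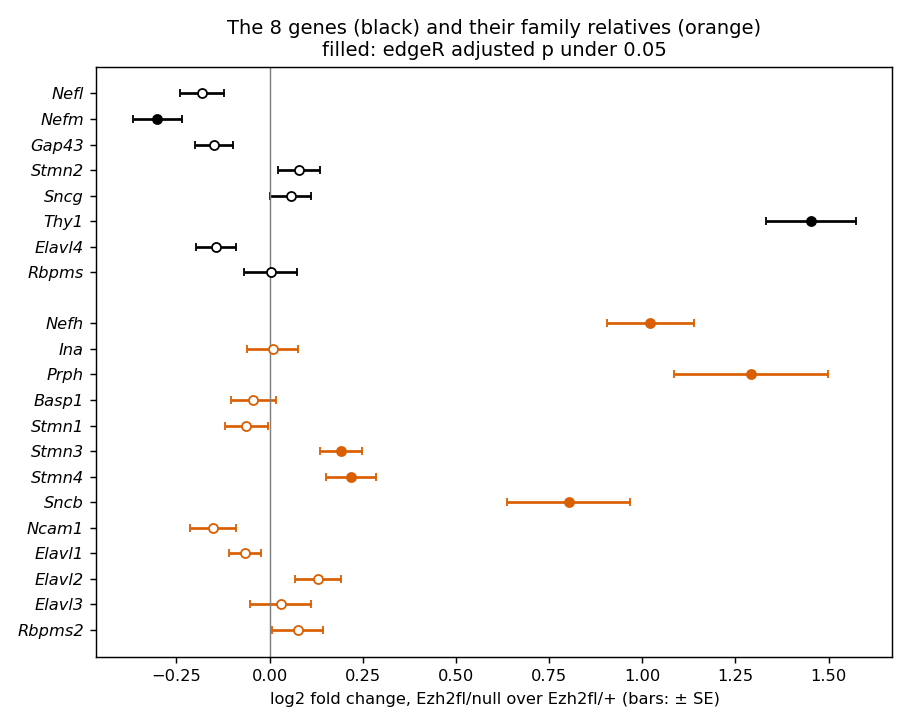
Log2 fold change of the 8 genes (black) and of 13 relatives (orange), null-labelled over control, with bars of ± SE and filled points for calls at an edgeR adjusted p under 0.05. Thy1 (1.45), Prph (1.29) and Nefh (1.02) lie farthest to the right, and Nefm (-0.30) farthest to the left.

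Several relatives of the 8 genes rose. Of the 13 relatives reported here, 5 rose, 0 fell and 8 were not called with edgeR (5 higher and 1 lower at an unadjusted p under 0.05, 5 and 0 with DESeq2), beside 8.35% and 3.46% of all genes tested, with a median log2 fold change of 0.08. The count of higher genes was 3 without null-labelled replicate 2 or 3 or control replicate 2 or 3. It was also 3 with the replicate block, with sex as a covariate, in male libraries alone and against control replicates 2 and 4 only. Against control replicates 1 and 3 only it was 2. Among neurofilament relatives, Nefh stood at 6.99, 7.10, 7.48 and 6.55 CPM in the null-labelled libraries and at 3.97, 3.54, 3.09 and 3.29 CPM in the controls, with no overlap. It rose from 3.47 ± 0.381 to 7.03 ± 0.383 CPM (SD, n = 4; log2 1.02, SE 0.12, edgeR adjusted p = 3.32e-05). Prph, the peripherin gene of peripheral neurons and some central ones, rose from 1.25 ± 0.344 to 3.14 ± 0.499 CPM (log2 1.29). Both were called in 22 of 22 alternatives. Ina, alpha-internexin, was at 504 ± 40.1 against 501 ± 38.9 CPM (log2 0.01, edgeR adjusted p = 0.963). The low-level subunits Nefh and Prph were thus higher and Nefm lower in the same libraries, and the more abundant Nefl and Ina were not called. Of 7 markers of peripheral neurons, 3 were tested and 0 called with edgeR (1 at an unadjusted p under 0.05, lower, and 0 with DESeq2). Their sum was 2.89 to 4.11 CPM against 2.69 to 4.40 CPM, low but of the same order as Prph. The part of peripheral neurons in the Prph result was not tested.

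Sncb, beta-synuclein, rose from 3.32 to 5.75 CPM on average (log2 0.80, SE 0.17, edgeR adjusted p = 0.00444), a call lost against control replicates 1 and 3 only. Stmn3 and Stmn4, stathmins of neurons, were called higher by log2 0.19 and 0.22 (edgeR adjusted p = 0.0366 and 0.0444), calls that ended in 13 and 11 of 22 alternatives, among them the male libraries alone. Each also ended without null-labelled replicate 2 or 3 or control replicate 2 or 3, and Stmn3 without control replicate 1 and Stmn4 without null-labelled replicate 1 or control replicate 4. Stmn1, Basp1, Ncam1, Rbpms2 and the other Elavl genes were not called, with log2 values from -0.15 for Ncam1 to 0.13 for Elavl2.

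The wider axon and growth cone list, 41 genes that hold Nefh, Prph, Ina, Stmn1, Stmn3 and Stmn4 but none of the 8, had a median log2 fold change of 0.01. Of these, 5 rose, 1 fell and 35 were not called, near the shares over all genes tested (8.35% higher and 3.46% lower), and 28 lay within 10% of the control level. Tubb3, the neuronal beta tubulin, was at 1345 ± 139 against 1365 ± 74.8 CPM (log2 -0.02), and Mapt, the microtubule protein tau, at log2 0.03. The gene that fell was Cntn2, which encodes the axonal adhesion protein TAG-1. It stood at 111, 129.7, 134 and 202 CPM against 230.3, 207, 266 and 228 CPM (log2 -0.69, SE 0.14, edgeR adjusted p = 0.00327). Null-labelled replicate 4 was close to the controls. The Cntn2 call ended with sex as a covariate, with the male libraries alone and against control replicates 2 and 4 only (edgeR adjusted p from 8.74e-06 to 0.0577 over 22 alternatives). Cnr1, the cannabinoid receptor gene, rose from 97.8 ± 6.99 to 136 ± 16.4 CPM (log2 0.47, edgeR adjusted p = 0.000584).

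Several genes of synapses and excitability rose. Of 24 tested, 11 rose, 0 fell and 13 were not called with edgeR (14 higher and 0 lower at an unadjusted p under 0.05, 12 and 0 with DESeq2), beside 8.35% of all genes called higher. The median log2 fold change was 0.25, against -0.01 over all genes tested. Chrna6, a nicotinic acetylcholine receptor subunit of ganglion cells, stood at 29.2, 29.1, 25.9 and 20.3 CPM against 10.1, 8.32, 7.58 and 8.02 CPM (log2 1.62, SE 0.12, edgeR adjusted p = 5.7e-07). Kcna1, a voltage-gated potassium channel gene, rose by log2 1.95 from 1.49 ± 0.568 CPM. Syp, the synaptic vesicle protein synaptophysin, was at 164 ± 6.27 against 139 ± 6.02 CPM (log2 0.24, edgeR adjusted p = 0.00194), and Syn2, Gabra2 and Grin1 rose by log2 0.75, 0.65 and 0.55. The count was 7 in male libraries alone, 7 without null-labelled replicate 1 or without control replicate 2, and 4 against control replicates 1 and 3 only. Amacrine cell markers, neurons that share such genes, summed to 1220 to 1300 CPM against 1110 to 1140 CPM, with 5 of 12 higher and 0 lower with edgeR (6 and 0 at an unadjusted p under 0.05, 5 and 0 with DESeq2). Horizontal cell markers summed to 371 to 426 against 351 to 403 CPM, with 3 of 7 higher and 2 lower with edgeR (3 and 1 with DESeq2, 3 and 0 in male libraries alone). Over all genes tested, 8.35% were called higher and 3.46% lower with edgeR. The part of amacrine or horizontal cells in these results was not tested.

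**Figure D4:**
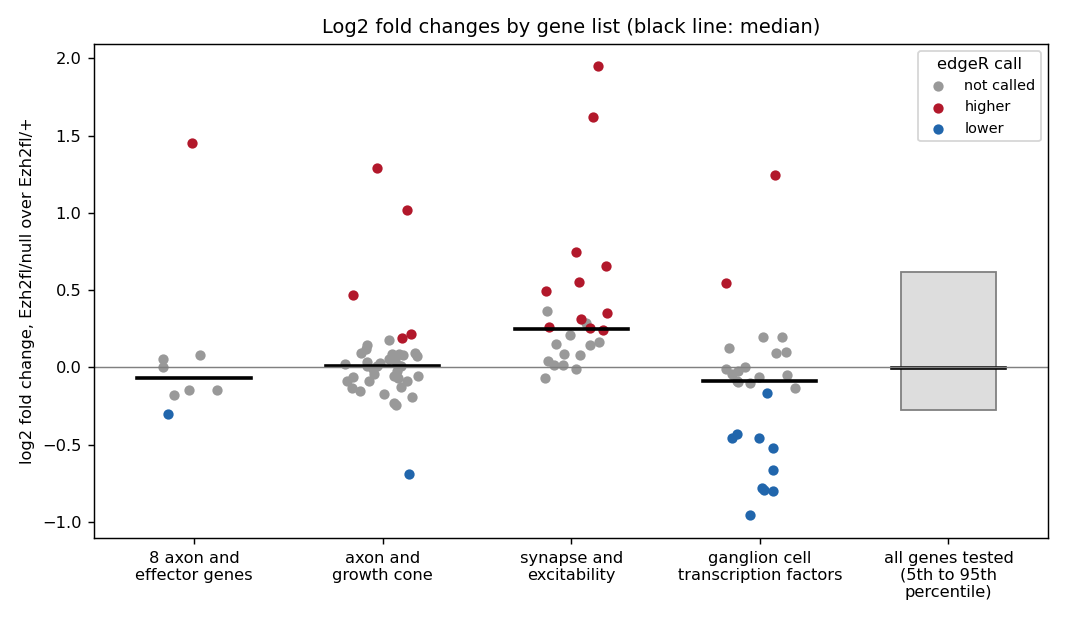
Log2 fold change of each tested gene, null-labelled over control, in the 8 genes and in 3 lists, with edgeR calls in red (higher) and blue (lower), the list median as a black line and the 5th to 95th percentile of all genes tested as a grey box. Most axon and growth cone genes lie near 0, and most calls among transcription factors are lower.

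Among transcription factors of ganglion cells, of 27 tested, 10 fell, 2 rose and 15 were not called, beside 3.46% and 8.35% of all genes. The median was -0.09. Pou4f2, the factor needed for ganglion cell differentiation and axon growth, stood at 33.96, 29.3, 35.1 and 42.5 CPM against 78.9, 63.1, 64.9 and 67.3 CPM (log2 -0.96, SE 0.10). Atoh7, which makes progenitors competent to become ganglion cells, fell by 0.80 on the log2 scale and Eomes by 0.67. Pou4f3 and Isl2 rose by log2 1.24 and 0.55. Isl1, one of the 3 genes most like Gap43 over the 8 libraries (r = 0.9761; 0.950 with group means subtracted), was at log2 -0.17 (edgeR adjusted p = 0.0428), a call that ended in 14 of 22 alternatives. In male libraries alone, 6 factors were lower and 2 higher. Retinal progenitor markers summed to 6010 to 6690 CPM in the null-labelled libraries and 7380 to 7840 CPM in the controls, with 5 of 8 lower and 0 higher with edgeR (6 and 0 at an unadjusted p under 0.05, 5 and 0 with DESeq2). Microglia markers summed to 40.0 to 48.9 against 30.4 to 37.1 CPM. Their part in these results was not tested.

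**Figure D5:**
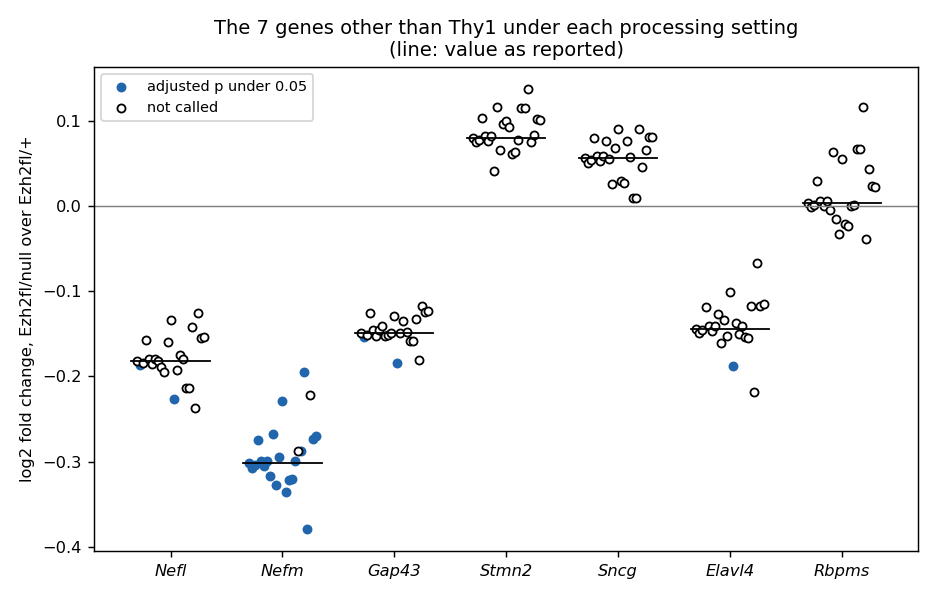
Log2 fold change of the 7 genes other than Thy1 under each processing setting (points), with filled points at an adjusted p under 0.05 and a line at the reported value. Nefm is called under most settings, Nefl, Gap43 and Elavl4 stay below 0 and are called under few, and Rbpms lies on both sides of 0.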

How the data were processed

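RNA from 4 Ezh2fl/null and 4 Ezh2fl/+ samples was measured. The authors deposited a single table with whole-number read counts per gene and library, not normalized. The submitters' processing notes name Novoalign 2.08.01, mm10 and DESeq2. The sources used here do not give the counter, annotation or filter. The deposited FPKM values are scaled by gene length and counted reads. The authors' log2 ratio and their adjusted p, a deposited score on an unnamed scale, were used only where named.

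Counts were tested with edgeR 4.0.16 (R 4.3.3): TMM, filterByExpr with a minimum count of 10, glmQLFit, glmQLFTest (two-sided) and Benjamini-Hochberg adjustment over 15014 genes, called under 0.05, with no covariate. The filter left out 1082 genes. Standard errors are implied by the F statistic. Correlations used log2 CPM with a prior count of 2. Alternatives used DESeq2 1.42.0, other scalings and filters, left-out libraries, sex, and limma 3.58.1 on log2(FPKM + 0.1) or log2(FPKM + 1) with a mean FPKM of at least 0.5, whose fold changes understate those of low genes. The procedure was tested on simulated data. Replicates of a group differed by 4.68 to 24.0 chi-square per degree of freedom, so none was taken for a repeat.

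Coordinates are GENCODE M21 on mm10, matched by Ensembl identifier. Of each list, the up to 6 genes with the smallest p (3 for markers, plus any called), all family relatives, neighbours within 100 kb and the 3 genes most like a member could be named; Tubb3 and Mapt were named after their values were seen. One listed relative is not reported here and is left out of the counts of relatives. The 8 genes and all lists were chosen with earlier results of these data known.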

Additional observations from a re-analysis of the deposited data

Results flagged for a closer look

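The Nefm level in control replicate 1, 379.9 CPM, lay far from the other 3 controls, the nearest of which was at 319 CPM. The gap was 0.840 of the range of the 4 controls. About 1 in 20 groups of 4 stands apart this way by chance, and 16 such groups were examined, 2 for each of the 8 genes. That library was also the highest control for the other 7 genes in CPM and held lens RNA at 16.6 CPM.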

How the results depend on the processing

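Thy1 was the only one of the 8 genes called higher under each of 22 alternatives. The number called lower, 1 as reported, was 3 with DESeq2, 0 with sex as a covariate and 0 against control replicates 2 and 4 only (edgeR; 4 and 1 at an unadjusted p under 0.05), and 1 to 4 with 1 library left out, the 4 without control replicate 2. In the axon and growth cone list, the number higher, 5 as reported, was 3 with the replicate block, with sex as a covariate, in male libraries alone, against control replicates 1 and 3 only and against control replicates 2 and 4 only, and 3 to 5 with 1 library left out, 3 each without null-labelled replicate 2 or 3 or control replicate 2 or 3. The number lower, 1 as reported, was 4 with DESeq2, 3 with the replicate block and 0 with sex as a covariate, in male libraries alone and against control replicates 2 and 4 only (1, 1 and 2 at an unadjusted p under 0.05), and 1 to 5 with 1 library left out, 3 without null-labelled replicate 1 and 5 without null-labelled replicate 4. The causes were not tested; settings with fewer samples have less to test with. Rbpms, at log2 0.003 as reported, was at -0.0016 with DESeq2, at -0.039 against control replicates 1 and 3 only and at -0.032 to 0.064 with 1 library left out. The Nefm call ended under 2 of 22 alternatives, given beside its value. The 7 genes other than Rbpms kept their direction in each of the 22. In deviations from the group means over 10193 genes, same-numbered libraries correlated at 0.223 and 0.257 for numbers 1 and 4. For these null-labelled libraries the same-numbered control was the best match. Numbers 2 and 3 gave -0.0345 and -0.0308, and their best match was another control. The values were thus mixed, the labels state no pairs, and the numbers were not taken as pairs in the main test. The replicate block gave 1179 higher and 497 lower genes, against 1253 and 520, and changed no call among the 8 genes. Over all genes, 800 were higher and 255 lower in male libraries alone, and the number lower was 273 with library size alone, 329 without control replicate 3, 246 with sex as a covariate, 323 without the lens RNA libraries, 243 and 235 against either control pair, and 184 and 188 with limma.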

Other observations

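After each group mean was subtracted, 26 of the 28 pairs among them had a positive Pearson r of log2 CPM over the 8 libraries, with a median of 0.579 and a range of -0.288 (Stmn2 and Elavl4) to 0.850 (Nefl and Gap43). The libraries share depth and scaling, and control replicate 1 was the highest control for each gene. The same measure was not computed for other gene pairs, so these values describe the 8 genes only. Nefl was most like Gpi1 over the 8 libraries (r = 0.9738), a glycolytic enzyme gene, and Nefm was most like Ccdc22 (r = 0.9755). Stmn2 was most like Ttyh1, a membrane protein gene of neural cells (r = 0.9906), and Sncg was most like Adipor1 (r = 0.9577) and the calmodulin gene Calm3 (r = 0.9521).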
